A study of Homo sapiens with 65 samples.

Results

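The Notch pathway genes DLL1, DLL4, JAG1 and JAG2 (ligands), NOTCH1 and NOTCH4 (receptors) and HEY1, HEY2, HES1 and NRARP (targets) were followed through differentiating human embryonic stem cells. These 10 genes were picked by symbol from the 58302 genes of the deposited table of fragment counts, and each symbol matched 1 Ensembl identifier. All cells were of the H9 line, an established human line, and every group carried the same pair of reporter alleles, SOX17 mCHERRY/w and RUNX1C GFP/w. The KO groups came from 1 derivative line of it, RUNX1 -/-, in which the DNA-binding domain of RUNX1 was deleted, and the cells without that deletion are called WT. Total RNA was sequenced from TruSeq libraries. The 65 libraries formed 19 groups, 18 of them with replicates.

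Unsorted cells of the mesoderm protocol were taken at day 0, day 2 and day 4, with 4 KO and 4 WT libraries at each day. Its medium (STAPEL) held BMP4, ACTIVIN A, VEGF, SCF and FGF2 up to day 4, with the inhibitor SB431542 and CHIR 99021 added from day 2, and then VEGF, SCF, FGF2 and IGF2. From day 7 the cells were sorted, and every gate was CD34+. Day 7 gave SOX17+CD43- cells (4 KO, 4 WT) and SOX17-CD43- cells (3 KO, 4 WT). Day 12 gave SOX17-CD43+ cells (3 WT), SOX17+CD43+ cells (2 WT), SOX17+CD43- cells (4 KO, 4 WT) and 1 KO library of SOX17-CD43- cells, which entered no test. The endoderm protocol used WT cells only, with Act A, CHIR and PI-103 at the start and then Act A with DMH-1, and gave 3 unsorted libraries at each of day 0, 2, 4 and 7. At days 2 and 4 the KO genotype is in the sample titles and not in the genotype field, and titles were followed.

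Notch ligands sit on the surface of one cell and bind Notch receptors on its neighbour. Binding leads to cleavage of the receptor, whose intracellular part enters the nucleus and, with the DNA-binding protein RBPJ, switches on genes such as those of the HES and HEY families and NRARP. In the embryo this pathway takes part in the formation of arteries and in the emergence of blood stem cells from arterial endothelium, the lining of blood vessels, where DLL4, JAG1, NOTCH1 and NOTCH4 are known to be expressed.

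Promoter windows of 300 bases, 250 before and 50 after the start, were available from RefSeq (GRCh38.p14) for 8 of the 10 genes, all but DLL1 and HEY1. They were searched on both strands for GTGGGAA, a site of RBPJ, for TGTGGT, a site of RUNX factors, and for ACAATG, a site of SOX factors. Of all 35116 windows, 6.25% held the RBPJ letters, 13.1% the RUNX letters and 10.8% the SOX letters. Of the 8 windows, 2 held the RBPJ letters (HES1 and HEY2, targets of the pathway), 2 the SOX letters (NOTCH4 and NRARP) and none the RUNX letters, and those of DLL4, JAG1, JAG2 and NOTCH1 held none of the 3. The stretches with a match are printed because both pairs of genes are compared between SOX17+ and SOX17- cells and between protocols, with the match in capitals. The positions are chr3:194136018-194136147 for HES1 (plus strand), chr6:125749412-125749637 for HEY2 (plus strand), chr6:32224068-32224197 for NOTCH4 (minus strand) and chr9:137302272-137302401 for NRARP (minus strand), and each stretch reads in the direction of its gene. The match of HES1 begins 85 bases before the start, those of HEY2 213 bases (on the opposite strand, as TTCCCAC) and 4 bases before it, that of NOTCH4 25 bases and that of NRARP 55 bases (both on the opposite strand, as CATTGT). The start is the one in the RefSeq table, and for HEY2 it lies inside the gene as GENCODE places it, downstream of the GENCODE start given below.
HES1: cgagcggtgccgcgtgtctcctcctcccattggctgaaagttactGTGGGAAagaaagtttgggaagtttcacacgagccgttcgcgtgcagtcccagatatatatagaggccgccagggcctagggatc
HEY2: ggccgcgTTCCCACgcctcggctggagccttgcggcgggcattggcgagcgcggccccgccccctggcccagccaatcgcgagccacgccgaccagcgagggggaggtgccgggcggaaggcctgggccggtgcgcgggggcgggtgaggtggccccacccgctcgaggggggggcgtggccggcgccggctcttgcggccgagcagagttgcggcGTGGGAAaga
NOTCH4: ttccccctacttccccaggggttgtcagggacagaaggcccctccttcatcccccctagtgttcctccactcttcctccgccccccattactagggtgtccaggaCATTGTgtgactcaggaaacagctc
NRARP: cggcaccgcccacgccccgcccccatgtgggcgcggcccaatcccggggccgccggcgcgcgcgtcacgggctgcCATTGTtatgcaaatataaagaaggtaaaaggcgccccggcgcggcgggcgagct

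In the GENCODE 29 annotation of GRCh38, DLL1 lies at chr6:170282206-170306565 and NOTCH4 at chr6:32194843-32224067 on the minus strand of chromosome 6, and HEY2 at chr6:125747664-125761269 on its plus strand. DLL4 lies at chr15:40929333-40939073 on the plus strand. JAG1 is at chr20:10637684-10673999, JAG2 at chr14:105140981-105168824, NOTCH1 at chr9:136494433-136545786 and NRARP at chr9:137300482-137302251, all on the minus strand, and HES1 is at chr3:194136145-194138732 on the plus strand. HEY1 lies on chromosome 8. All 10 code for proteins. The sources used here do not give whether strand was used in the counting. Whether reads of genes that overlap a member entered its count was not tested. Overlap was taken over whole gene spans, introns included. Such neighbours were annotated for DLL1 (FAM120B on the other strand and 1 non-coding RNA), JAG1 and NOTCH1 (1 antisense RNA and 1 miRNA each), HEY2 (1 antisense RNA), JAG2 (AL512356.1 and 1 miRNA on the same strand) and NOTCH4 (GPSM3 on the same strand), and none for DLL4, HES1, HEY1 or NRARP.

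Libraries held between 10366048 and 19081031 counts, and levels are given as CPM, the counts scaled to the library total. A change is the log2 fold change ± its standard error from edgeR's quasi-likelihood test, and a gene is said to have risen or fallen where the p-value, adjusted after Benjamini and Hochberg over all genes of the fit, was under 0.05. Nothing in the labels says that replicates were separate cultures, so p-values describe the spread among these libraries, which may be technical. Marker sums went with the labels of these groups: 12 endothelial genes summed to 11623 to 13044 CPM in WT SOX17+CD43- cells of day 7 and to 151 to 205 CPM at day 0 of the mesoderm protocol, 12 blood genes to 3506 to 3632 CPM in SOX17-CD43+ cells of day 12, and 10 endoderm genes to 14368 to 17030.1 CPM at day 7 of the endoderm protocol. RUNX1, counted over the whole gene and so no check of the deleted stretch, was reduced in KO against WT SOX17+CD43- cells of day 7 (-1.54 ± 0.24, adjusted p = 0.00514) and of day 12 (-2.05 ± 0.25, adjusted p = 6.27e-05). In SOX17-CD43- cells of day 7 it differed by -1.38 ± 0.26 (adjusted p = 0.0617), and its groups overlapped before day 7. Some libraries stood apart from their groups: KO 4 and WT 3 of day 4, which were low in mesenchyme genes, number 1 of both lines at day 0, and WT number 4 of the SOX17-CD43- cells of day 7. In these bulk samples, fewer cells that express a gene and less RNA per cell cannot be told apart.

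**Figure D1:**
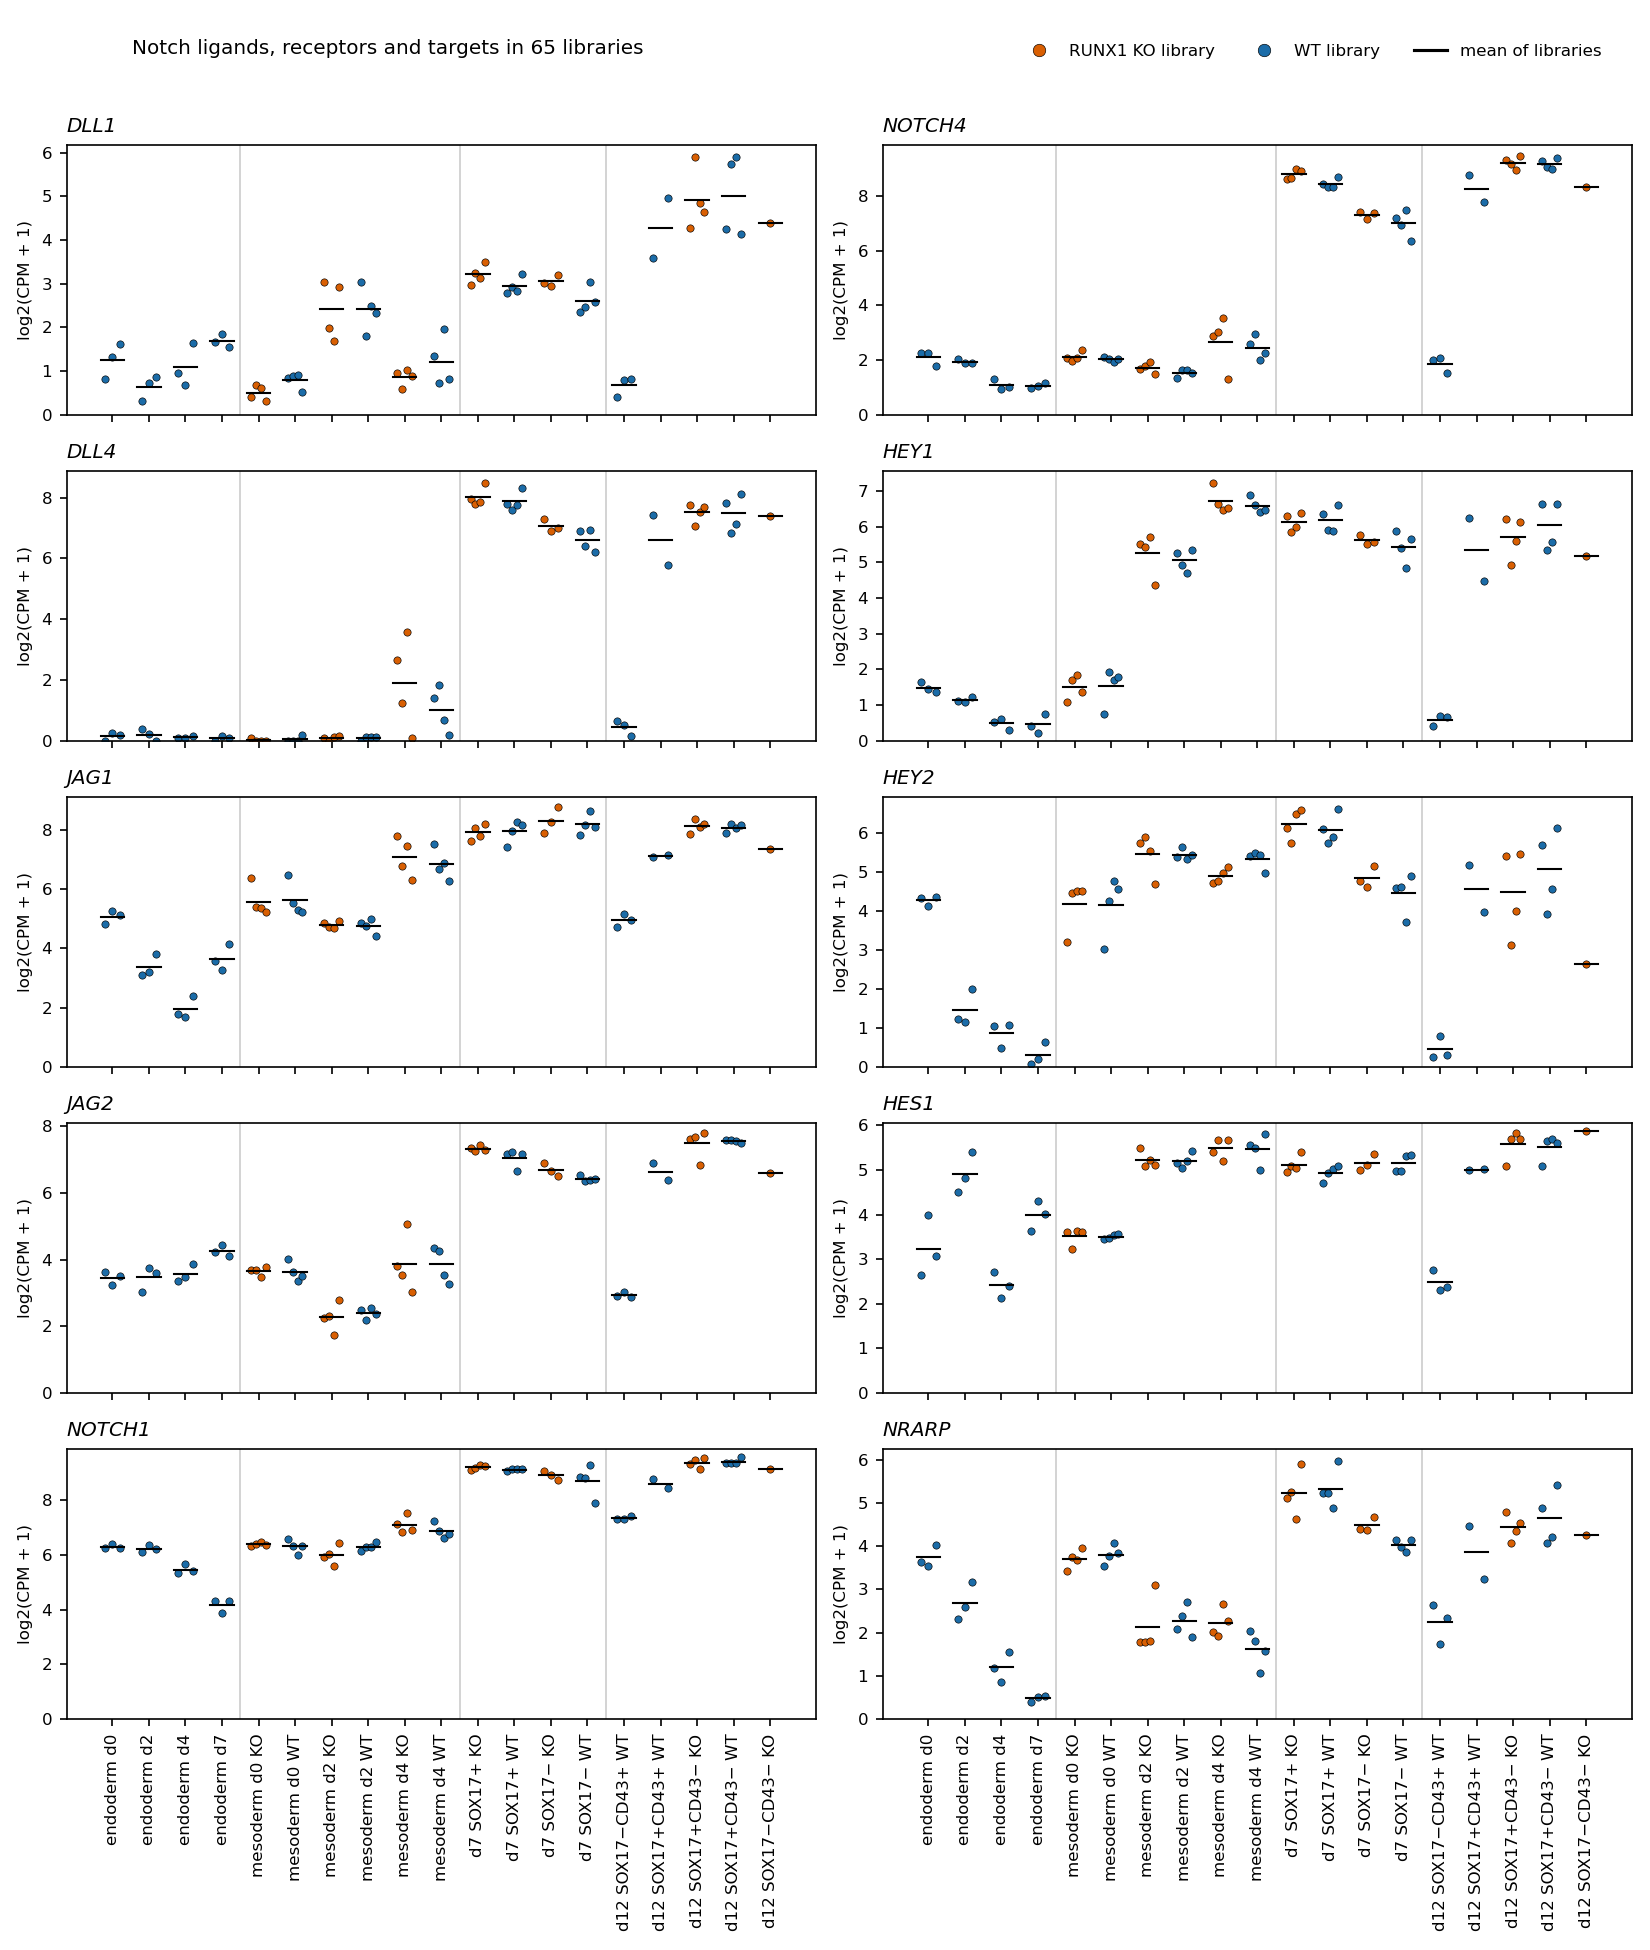
Level of each gene as log2(CPM + 1) in each of the 65 libraries (points, orange for RUNX1 KO and blue for WT), by group along the horizontal axis, with black bars at the mean of the group. DLL4, JAG2, NOTCH1 and NOTCH4 stand highest in the sorted endothelial cells of day 7 and day 12, and SOX17-CD43+ cells of day 12 lie below the other day 12 groups for all 10 genes.

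Over the first days of the mesoderm protocol the genes of the pathway moved apart. Between day 0 and day 2 in WT cells, 4 of the 10 rose (DLL1, HEY1, HEY2, HES1) and 3 fell (JAG1, JAG2, NRARP), where 45.1% of all genes changed in one direction or the other. Between day 2 and day 4, 6 rose (DLL4, JAG1, JAG2, NOTCH1, NOTCH4, HEY1) and 2 fell (DLL1, NRARP), against 51.4% of all genes. Both shares of members changed, 7 of 10 and 8 of 10, are above these backgrounds. The 10 genes were chosen with earlier results of these data known, so these shares are descriptions only. The median change of the 10 between day 2 and day 4 was 0.94, that of all genes -0.01.

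Among the ligands, DLL1, which in mouse acts in the segmenting mesoderm, was a gene of day 2. The 4 WT libraries held 0.788, 0.834, 0.882 and 0.441 CPM at day 0, 7.19, 2.51, 4.58 and 4.02 CPM at day 2, and 1.52, 0.648, 2.89 and 0.771 CPM by day 4. Every library of day 2 was above every library of day 0, while 1 library of day 4, number 3, was above the lowest of day 2. The change to day 2 was 2.60 ± 0.46 (adjusted p = 8.04e-05) and that to day 4 -1.67 ± 0.43 (adjusted p = 0.00251). KO libraries followed the same order, with 0.237 to 0.608, 2.24 to 7.26 and 0.497 to 1.04 CPM at day 0, 2 and 4. JAG1, the ligand mutated in Alagille syndrome, went the other way. It stood at 87.6, 44.8, 37.8 and 36.1 CPM at day 0, 27.7, 26.1, 30.4 and 20.1 CPM at day 2, and 184, 102, 117 and 75.7 CPM by day 4. Library 1 was far above the others at day 0, and all libraries of day 4 were above all of day 2. The fall to day 2 (-1.04 ± 0.35, adjusted p = 0.0193) did not pass without library 1 of day 0 (-0.58, adjusted p = 0.15) or library 4 of day 2 (adjusted p = 0.0583), and the rise to day 4 was 2.20 ± 0.36 (adjusted p = 2.76e-05). JAG2, a related ligand, was at 9.26 to 15.2 CPM at day 0, 3.57 to 4.89 CPM at day 2 and 8.69 to 19.1 CPM at day 4, which gave changes of -1.46 ± 0.37 (adjusted p = 0.00254) and 1.72 ± 0.37 (adjusted p = 0.000532).

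DLL4, the ligand of arterial and sprouting endothelium, was close to absent before day 4. All 16 KO and WT libraries of day 0 and day 2 held at most 0.147 CPM. At day 4 the WT libraries held 1.63, 2.54, 0.615 and 0.14 CPM, from 83 counts in all, against 3 counts at day 2. That is a ratio of 20.6 with a 95% counting interval of 6.82 to 102, which covers counting error only. Library 4 of day 4 was barely above the libraries of day 2, and the other 3 were well above them. The rise passed edgeR's test (adjusted p = 0.00841) and not limma on the deposited log2 RPKM (adjusted p = 0.258).

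The receptors rose later. NOTCH1, the receptor that mouse embryos need to form blood stem cells, stood at 93.7, 80, 62.9 and 80.1 CPM at day 0, 69.1, 76.6, 76.1 and 88.4 CPM at day 2, and 149, 117, 96.1 and 107 CPM by day 4. Days 0 and 2 overlapped (-0.07 ± 0.18, adjusted p = 0.788), and all libraries of day 4 were above all of day 2 (0.60 ± 0.18, adjusted p = 0.00672). NOTCH4, a receptor found mainly in endothelium, was far lower, at 2.77 to 3.27, 1.52 to 2.13 and 2.95 to 6.72 CPM at day 0, 2 and 4. Its libraries of day 2 were all below those of day 0 without passing the test (-0.72 ± 0.37, adjusted p = 0.126), and it rose to day 4 by 1.28 ± 0.37 (adjusted p = 0.00625).

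The targets did not move as a group. HEY1, a transcriptional repressor, had the largest rise of the 10 genes to day 2. It stood at 0.667, 2.8, 2.27 and 2.42 CPM at day 0, 37.1, 29.3, 25.1 and 39.5 CPM at day 2, and 118, 96.3, 84.3 and 87.3 CPM by day 4, with no overlap between the days. The changes were 4.00 ± 0.34 (adjusted p = 2.7e-09) and 1.56 ± 0.28 (adjusted p = 7.97e-05). HES1, a repressor related to it, rose once, to day 2 (1.77 ± 0.17, adjusted p = 1.51e-08), with 9.88, 10.2, 10.6 and 10.8 CPM at day 0, 34.6, 31.9, 35.8 and 42.1 CPM at day 2, and 46.5, 44.1, 31.1 and 55.1 CPM by day 4. The libraries of the last days overlapped (0.30 ± 0.16, adjusted p = 0.127), and without library 3 of day 4 that difference passed (0.44, adjusted p = 0.0133). HEY2, whose zebrafish counterpart acts in the formation of the aorta, stood at 7.09, 18, 26.3 and 22.5 CPM at day 0, with library 1 lowest, and at 39.1 to 49 CPM at day 2 and 30.4 to 44.3 CPM at day 4. Its rise to day 2 was 1.20 ± 0.30 (adjusted p = 0.00232).

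NRARP, which codes for an inhibitor of the Notch complex and is itself switched on by it, fell while HEY1 and HES1 rose. It stood at 10.6, 12.6, 15.8 and 13.3 CPM at day 0, 3.25, 4.24, 5.53 and 2.71 CPM at day 2, and 3.09, 2.48, 1.11 and 1.96 CPM by day 4. Day 2 lay wholly below day 0 (-1.76 ± 0.34, adjusted p = 0.000182), and days 2 and 4 overlapped. The later fall, -0.85 ± 0.35 (adjusted p = 0.0474), was on the edge of the test and did not pass in 5 of the 8 fits that left out 1 library, with adjusted p up to 0.159. One of these was the fit without library 3 of day 4 (-0.63, adjusted p = 0.144).

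Between KO and WT cells no difference in these genes passed before sorting. None of the 10 was called at day 0, 2 or 4, and edgeR called 0%, 0% and 0% of all genes at these days. DESeq2 and limma also called none of the 10. At an unadjusted p under 0.05 there were 0, 0 and 2 members, the pair being DLL4 and NRARP at day 4. Of all 21612 genes, 146, 973 and 987 were under it at these days. DLL4 stood at 5.36, 1.37, 11 and 0.076 CPM in KO libraries of day 4 and at 1.63, 2.54, 0.615 and 0.14 CPM in WT libraries. KO libraries 1 and 3 were above all WT libraries, and KO library 4 below all of them. The difference was 1.84 ± 0.74 with adjusted p = 1. The 12 endothelial genes summed to 1415, 1458, 2959 and 965 CPM in the same KO libraries and to 2377, 2079, 1647 and 1840.4 CPM in the WT libraries, so that KO library 3 was highest and KO library 4 lowest in both. NRARP stood at 3.06, 2.79, 5.31 and 3.8 CPM in KO and 3.09, 2.48, 1.11 and 1.96 CPM in WT libraries (0.80 ± 0.35, adjusted p = 1). Number 1 of both lines stood apart at day 0 in the same genes: JAG1 was at 80.8 CPM in KO and 87.6 CPM in WT, where no other day 0 library of the protocol was above 44.8 CPM, and HEY2 was at 8.26 and 7.09 CPM, where no other was below 18 CPM.

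In the endoderm protocol most of the genes ran down. DLL4 never exceeded 0.294 CPM in its 12 libraries and was too low to be tested there. Of the 9 genes tested, HES1 rose and DLL1, JAG1, HEY2 and NRARP fell between day 0 and day 2 (55.5% of all genes changed). Between day 2 and day 4, JAG1, NOTCH1, NOTCH4, HEY1, HES1 and NRARP fell and none rose (42.4% of all genes). Between day 4 and day 7, JAG1, JAG2 and HES1 rose and NOTCH1 and NRARP fell (21.3% of all genes). The share of members changed was close to the background in the first interval (5 of 9) and above it in the others (6 of 9 and 5 of 9). These shares too are descriptions only.

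HEY2 and HES1 show the course of the endoderm libraries. HEY2 stood at 19.1, 16.4 and 19.6 CPM at day 0, 1.35, 1.23 and 2.99 CPM at day 2, 1.08, 0.399 and 1.09 CPM at day 4, and 0.0534, 0.157 and 0.564 CPM by day 7. All libraries of day 2 were far below all of day 0 (-3.36 ± 0.36, adjusted p = 2.59e-06), and later days were lower still without passing (adjusted p = 0.105 and 0.0759). HES1 went up and down: 5.23, 15 and 7.43 CPM at day 0, 21.7, 27.4 and 41.2 CPM at day 2, 5.57, 3.39 and 4.24 CPM at day 4, and 11.5, 18.9 and 15.2 CPM by day 7. No neighbouring days overlapped, with changes of 1.65 ± 0.33, -2.64 ± 0.36 and 1.89 ± 0.36. JAG1 fell over 4 days and then rose, with 27.2 to 37.1, 7.46 to 13, 2.19 to 4.18 and 8.54 to 16.7 CPM on the 4 days. NOTCH1 was still at 67.5 to 81.2 CPM at day 2 and reached 13.6 to 19.1 CPM at day 7, with changes of -0.66 ± 0.13 and -1.22 ± 0.14 after day 2. DLL1 was low throughout, at 0.235 to 2.62 CPM, and its fall to day 2 (-1.37 ± 0.52, adjusted p = 0.0373) was lost in 4 of 6 fits without 1 library and with limma. The fall of HEY1 to day 4 was lost without library 3 of day 4 (adjusted p = 0.0514), and that of NRARP to day 7 without library 3 of day 4 or library 1 of day 7 (adjusted p = 0.0732 and 0.0635). Library 3 of day 4 carries number 68684, next to the sorted cells, which begin at 68685. The other endoderm libraries carry numbers from 31999 to 32010. The 6 genes that differed between the protocols at day 4, given below, passed in every fit without 1 library, this one included. The part of the number range in the day 4 values was not tested.

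**Figure D2:**
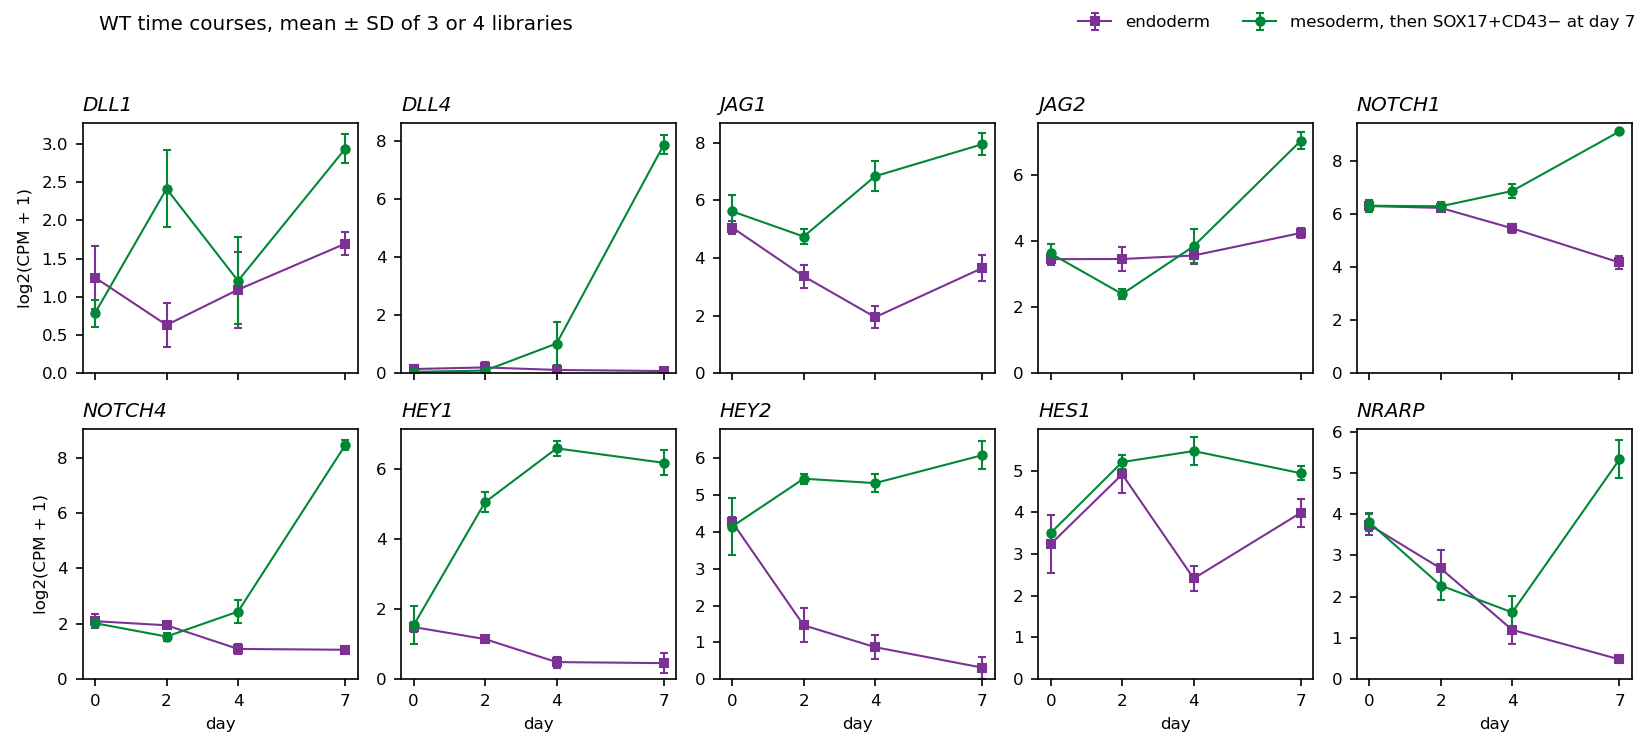
Mean ± SD of log2(CPM + 1) by day in WT cells of the endoderm protocol (purple squares, 3 libraries a day) and of the mesoderm protocol (green circles, 4 libraries a day, unsorted up to day 4 and sorted SOX17+CD43- cells at day 7). HEY1, HEY2, JAG1, NOTCH1, NOTCH4 and HES1 part between the protocols by day 4, HES1 after a rise in both to day 2.

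Set against each other, the protocols differed in the response of 4 genes by day 2 and of 6 by day 4, of 9 tested. The difference of the changes from day 0, endoderm minus mesoderm, called 29.5% of all genes at day 2 and 40.4% at day 4. At day 2 it was -4.64 ± 0.43 (adjusted p = 2.23e-07) for HEY1, -4.55 ± 0.46 (adjusted p = 6.42e-07) for HEY2 and -3.96 ± 0.78 (adjusted p = 0.000811) for DLL1, lower in endoderm, and 1.45 ± 0.39 (adjusted p = 0.00806) for JAG2, higher in endoderm. HES1, which rose in both protocols, differed by -0.11 ± 0.39 (adjusted p = 0.872). At day 4 the differences were -7.66 ± 0.48 for HEY1, -5.42 ± 0.49 for HEY2, -4.55 ± 0.50 for JAG1, -3.06 ± 0.41 for HES1, -2.04 ± 0.37 for NOTCH4 and -1.31 ± 0.22 for NOTCH1, with adjusted p of at most 0.000183. HEY1 shows the size of this: endoderm libraries of day 4 held 0.443, 0.532 and 0.242 CPM and mesoderm libraries 118, 96.3, 84.3 and 87.3 CPM, while those of day 0 held 1.56 to 2.13 and 0.667 to 2.8 CPM. NRARP fell in both protocols and did not differ past the test (adjusted p = 0.348 and 0.388).

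Between unsorted mesoderm of day 4 and sorted endothelium of day 7 most of the set changed. In WT SOX17+CD43- cells of day 7, 8 of the 10 genes were higher than in mesoderm of day 4 and HES1 was lower, where 62.8% of all genes differed. This comparison also sets sorted against unsorted cells, and library numbers of 68685 to 68715 against 31266 to 31320. The endothelial genes summed to 11623 to 13044 CPM at day 7 against 1647 to 2377 CPM at day 4. Stage, sorting, cell type and number range cannot be told apart. DLL4 stood at 220.5, 193, 217 and 319.7 CPM in SOX17+CD43- cells of day 7, against 0.14 to 2.54 CPM at day 4 (7.49 ± 0.47, adjusted p = 7.99e-07). NOTCH4 stood at 349, 321, 318 and 419 CPM, against 2.95 to 6.72 CPM (6.19 ± 0.25, adjusted p = 9.09e-08). Neither gene came near to overlapping. NRARP was at 28.3 to 61.8 CPM, against 1.11 to 3.09 CPM (4.17 ± 0.33), JAG2 at 99.8 to 148 CPM, against 8.69 to 19.1 CPM (3.18 ± 0.26), and NOTCH1 at 530.5 to 562 CPM, against 96.1 to 149 CPM (2.18 ± 0.14). The other rises were 2.15 ± 0.39 for DLL1, 1.03 ± 0.27 for JAG1 and 0.75 ± 0.19 for HEY2. HES1 was at 25.1 to 33.1 CPM, against 31.1 to 55.1 CPM (-0.62 ± 0.17, adjusted p = 0.01), and HEY1 at 57.5 to 96.6 CPM, against 84.3 to 118 CPM (-0.45 ± 0.18, adjusted p = 0.0503). Without library 3 of day 4 or library 4 of day 7, HEY1 fell too (-0.54 and -0.62, adjusted p = 0.0202 and 0.0101).

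Per length, the ligand with the highest level changed with stage. These levels are RPKM, taken back from the deposited log2 RPKM values. At day 4 of mesoderm, JAG1 had the highest level of the 4 ligands, with 14.2 ± 5.83 RPKM (SD, n = 4 WT), and JAG2 followed with 2.25 ± 0.888 RPKM. In WT SOX17+CD43- cells of day 7, DLL4 had 48.2 ± 11.5 RPKM, JAG1 28.5 ± 6.97 RPKM, JAG2 20.1 ± 3.47 RPKM and DLL1 2.01 ± 0.331 RPKM (SD, n = 4). In WT SOX17-CD43- cells of day 7 the order of the first pair was the other way, with JAG1 at 33.6 ± 8.22 RPKM and DLL4 at 20.1 ± 4.78 RPKM (SD, n = 4). At day 12 in WT SOX17+CD43- cells DLL4, JAG1 and JAG2 lay within 1 SD of DLL4 of each other, at 39.2 ± 15.6, 31 ± 3.13 and 29 ± 0.981 RPKM, and DLL1 had come up to 11.2 ± 6.96 RPKM. Of the receptors, NOTCH1 was above NOTCH4 by RPKM in every group: 12 ± 2.71 and 0.48 ± 0.182 RPKM at day 4 of WT mesoderm, and 68.3 ± 5.88 and 59.5 ± 7.5 RPKM in WT SOX17+CD43- cells of day 12, where they differed by about the spread of NOTCH4.

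**Figure D3:**
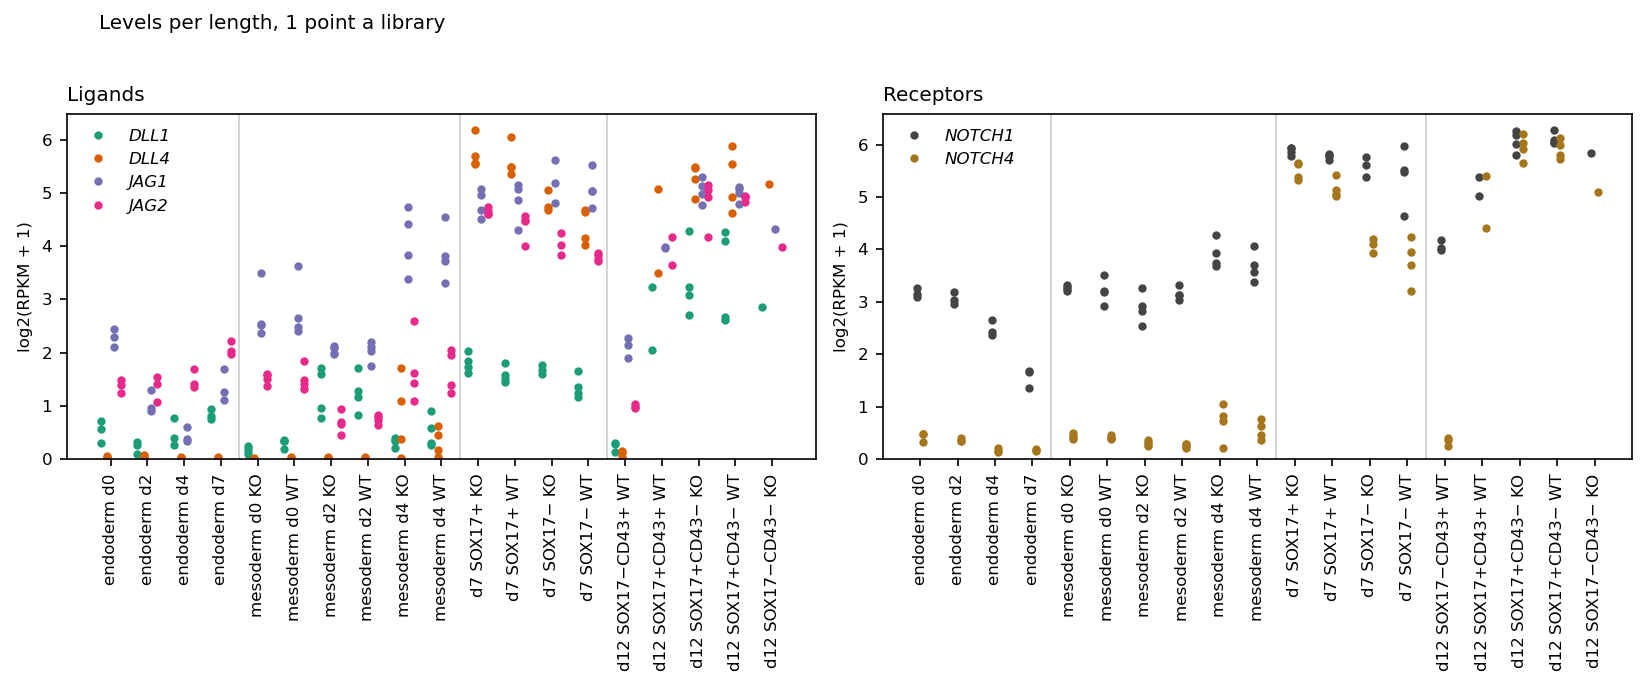
Level per length of the 4 ligands (left) and 2 receptors (right) as log2(RPKM + 1), 1 point a library, by group. DLL4 lies near 0 up to day 2 and in endoderm, reaches 1.72 in KO library 3 of day 4 mesoderm, and lies above JAG1 in every library of SOX17+CD43- cells of day 7, and NOTCH4 comes up towards NOTCH1 in the sorted endothelial groups.

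SOX17, the gene behind the gate, codes for a transcription factor of arterial endothelium, and the day 7 sort asks which genes go with it. SOX17 RNA was lower in the SOX17- gate and not absent from it. It stood at 177 to 237 CPM in KO SOX17+ cells, against 52.5 to 71.1 CPM in KO SOX17- cells. In WT it stood at 154 to 230 CPM, against 32.1 to 70.8 CPM. In KO cells of day 7, 1 of the 10 was higher in SOX17+ than in SOX17- cells (NOTCH4), where 0.67% of all genes differed. In WT cells 4 of the 10 were higher (DLL4, JAG2, NOTCH4, NRARP) and 1.6% of all genes differed. None of the 10 passed as lower in either line. Their median difference was 0.60 in KO and 0.68 in WT, that of all genes -0.00389 and -0.0088. NOTCH4 had the smallest p of the 10 in both lines. It stood at 392, 402, 505 and 488 CPM in KO SOX17+ cells, against 171, 142 and 165 CPM in KO SOX17- cells, and at 349, 321, 318 and 419 CPM in WT SOX17+ cells, against 148, 123, 178 and 80.4 CPM in WT SOX17- cells. No library of one gate reached the other in either line, with 1.49 ± 0.22 (adjusted p = 0.000387) in KO and 1.40 ± 0.19 (adjusted p = 0.00012) in WT.

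DLL4 stood at 249, 222, 228 and 352 CPM in KO SOX17+ cells, against 157, 119 and 128 CPM in KO SOX17- cells, and at 220.5, 193, 217 and 319.7 CPM in WT SOX17+ cells, against 118, 83.3, 120.0 and 72.8 CPM in WT SOX17- cells. The gates did not overlap in either line, and the test did not pass in KO (0.97 ± 0.30, adjusted p = 0.162) and passed in WT (1.26 ± 0.28, adjusted p = 0.014). NRARP had 33.9, 37, 23.8 and 59.2 CPM in KO SOX17+ cells, against 20.2, 19.7 and 24.5 CPM in KO SOX17- cells, and 36.8, 36.4, 28.3 and 61.8 CPM in WT SOX17+ cells, against 16.5, 14.7, 13.5 and 16.6 CPM in WT SOX17- cells. Its gates overlapped in KO through SOX17+ library 3 (0.85 ± 0.33, adjusted p = 0.352) and not in WT (1.40 ± 0.30, adjusted p = 0.0125). JAG2 differed by 0.65 ± 0.17 (adjusted p = 0.0662) in KO and by 0.64 ± 0.15 (adjusted p = 0.0254) in WT, without overlap in either line. It stood at 161, 151, 172 and 155 CPM in KO SOX17+ cells, against 117, 100.2 and 89.6 CPM in KO SOX17- cells, and at 143, 148, 99.8 and 142 CPM in WT SOX17+ cells, against 91.4, 81.5, 82.2 and 84.9 CPM in WT SOX17- cells. SOX17+ library 4 was the highest for DLL4, HEY1, HEY2 and NRARP in both lines. Without WT SOX17+ library 4, DLL4 (1.09, adjusted p = 0.079), JAG2 (adjusted p = 0.095) and NRARP (1.13, adjusted p = 0.0869) did not pass, which left NOTCH4 alone. DLL4 also missed it without SOX17- library 2 or 4 (adjusted p = 0.0551 and 0.0662), and JAG2 in 6 of the 8 fits without 1 library.

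HEY2 had the largest difference of the 10 in WT cells and stayed just outside the test. It stood at 68.5, 53.2, 89.4 and 95.2 CPM in KO SOX17+ cells, against 26.3, 23.6 and 34.9 CPM in KO SOX17- cells, and at 68.3, 52.2, 58.5 and 96.5 CPM in WT SOX17+ cells, against 23.1, 23.4, 12.2 and 28.6 CPM in WT SOX17- cells, with no overlap in either line. The difference was 1.45 ± 0.47 (adjusted p = 0.213) in KO and 1.64 ± 0.44 (adjusted p = 0.0521) in WT. In WT it passed with DESeq2 (adjusted p = 0.0441) and in 5 other settings, with adjusted p from 6.59e-05 to 0.065 over the 7 settings tried. It passed in none of the 8 fits without 1 library (adjusted p up to 0.197). HEY1 also kept its gates apart (0.55 ± 0.34 in KO, 0.72 ± 0.32 in WT) without passing (adjusted p = 0.841 and 0.366). In KO it passed with edgeR on the compared groups alone (adjusted p = 0.0467). In WT it passed in edgeR with replicate numbers or runs of library numbers as a block (adjusted p = 0.0491 and 0.0358). Neither block met the rule for pairs in WT. In WT its lowest SOX17+ library held 57.45 CPM and its highest SOX17- library 57.43 CPM. HES1 and JAG1 leaned the other way, at -0.24 ± 0.16 and -0.24 ± 0.19 in WT, and -0.02 ± 0.17 and -0.41 ± 0.20 in KO, with overlapping gates in both lines (unadjusted p = 0.0481 and adjusted p = 0.616 for JAG1 in KO). DLL1 overlapped in both lines, and NOTCH1 overlapped in WT but not in KO, where it stood at 549 to 625 CPM in SOX17+ cells, against 427 to 532 CPM in SOX17- cells (0.31 ± 0.18, adjusted p = 0.789). The RBPJ letters printed above are in the windows of both HES1 and HEY2, and the SOX letters in those of NOTCH4 and NRARP. The windows of DLL4 and JAG2, which also passed in WT, held neither. Of all windows, 6.25% held the RBPJ and 10.8% the SOX letters. A link between letters and gates was not tested. Runs of 10 consecutive library numbers paired the KO libraries of day 7 (correlations of their deviations 0.168 to 0.392), and with the run as a block 5 of the 10 passed in KO: DLL4 (1.01), JAG2 (0.72), NOTCH4 (1.51), HEY2 (1.58) and NRARP (0.95).

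The SOX17 difference itself was compared between the lines. KO minus WT, it passed for none of the 10 and called 0% of all genes with edgeR, and DESeq2 and limma called no member either, nor was any member's unadjusted p under 0.05. The widest was that of NRARP at -0.54 ± 0.44, and that of NOTCH4 was 0.09 ± 0.28. Other genes moved with the gate: the 7 arterial genes, SOX17 among them, summed to 2268 to 3138 CPM in KO SOX17+ cells, against 1289 to 1372 CPM in KO SOX17- cells, and to 2061 to 3359 CPM in WT SOX17+ cells, against 912 to 1159.9 CPM in WT SOX17- cells. The 10 mesenchyme genes went the other way, with 397 to 722 CPM, against 1104 to 1558 CPM, in KO and 508 to 813 CPM, against 1142 to 1796 CPM, in WT. Endothelial genes summed to overlapping ranges, 11623 to 13044 CPM in WT SOX17+ cells, against 9095 to 15424 CPM in WT SOX17- cells. Blood genes summed to 83.2 to 95.9 CPM, against 102 to 119 CPM, in KO and to 105 to 112 CPM, against 122 to 156 CPM, in WT. Pluripotency genes summed to 377 to 412 CPM, against 495 to 542 CPM, in KO and to 405 to 462 CPM, against 536 to 609 CPM, in WT. The endoderm list, which shares SOX17 and CXCR4 with the arterial one, was higher in SOX17+ cells, with 378 to 477 CPM, against 211 to 226 CPM, in KO and 323 to 509 CPM, against 158 to 279 CPM, in WT. The part of these marker differences in the result was not tested.

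**Figure D4:**
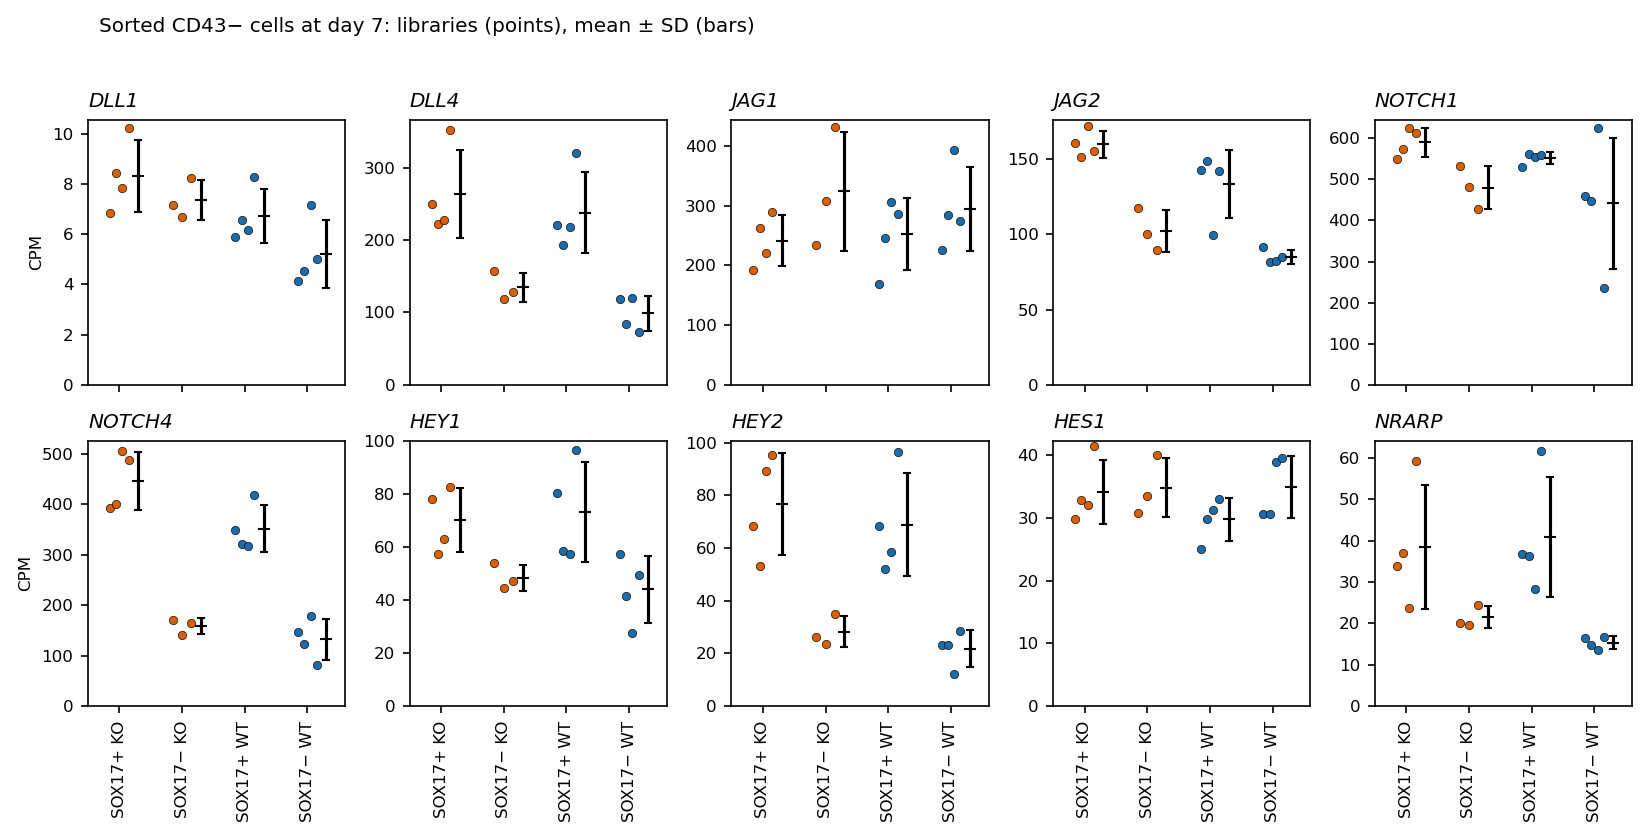
Level in CPM of each gene in the libraries of CD34+CD43- cells of day 7 (points) with mean ± SD beside them, KO in orange and WT in blue, SOX17+ left of SOX17- in each line. The gates are apart in both lines for DLL4, JAG2, NOTCH4, HEY1 and HEY2, in KO alone for NOTCH1 and in WT alone for NRARP, and KO and WT cells of the same gate overlap for all genes except JAG2 in SOX17+ and NRARP in SOX17- cells.

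The KO line asks what the loss of the RUNX1 DNA-binding domain does to the sorted cells. None of the 10 genes passed between KO and WT in SOX17+ cells of day 7 (0.0566% of all genes called), in SOX17- cells of day 7 (0.0087%) or in SOX17+CD43- cells of day 12 (0.187%), and none did with DESeq2 or limma or at an unadjusted p under 0.05. Nor did the difference of the KO effects between day 12 and day 7 pass for any of the 10 (0.00435% of all genes called). DLL4 averaged 263 ± 60.7 CPM in KO and 238 ± 56 CPM in WT SOX17+ cells of day 7 (SD, n = 4 each), a difference of 0.17 ± 0.27. NOTCH1 averaged 590.3 ± 35.2 CPM in KO and 551 ± 14.2 CPM in WT cells of the same gate, a difference of 0.13 ± 0.16. Replicate numbers paired these SOX17+ libraries, and in CPM the KO library was above the WT library of its number in 4 of 4 pairs for 6 of the 10 genes, DLL1, DLL4, JAG2, NOTCH1, NOTCH4 and HES1, and below it in every pair for none. This sign was not counted over all genes, so no background stands beside these 6. With the number as a block none of the 10 passed. At day 12 the differences of the receptors were -0.04 ± 0.16 for NOTCH1 and 0.04 ± 0.19 for NOTCH4, and the widest of the 10 was that of HEY2 at -0.56 ± 0.43. Without overlap, JAG2 was higher in KO than in WT SOX17+ cells of day 7 (151 to 172 CPM, against 99.8 to 148 CPM, 0.29 ± 0.15, adjusted p = 1), and NRARP in KO than in WT SOX17- cells (19.7 to 24.5 CPM, against 13.5 to 16.6 CPM, 0.49 ± 0.33, adjusted p = 0.878). A p that misses the threshold does not show equal levels, and the standard errors were widest for HEY2 and DLL1 (0.42 and 0.39 in SOX17+ cells of day 7).

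From day 7 to day 12 the SOX17+CD43- endothelium gained DLL1. KO libraries of day 12 held 18.4, 58.8, 27.9 and 24 CPM, against 6.83, 8.43, 7.82 and 10.2 CPM at day 7, and WT libraries of day 12 held 17.9, 52.2, 59 and 16.7 CPM, against 5.9, 6.56, 6.14 and 8.25 CPM at day 7. All libraries of day 12 were above all of day 7, by 1.97 ± 0.38 (adjusted p = 0.000504) in KO and 2.49 ± 0.38 (adjusted p = 3.4e-05) in WT. In KO, HES1 rose as well (0.50 ± 0.16, adjusted p = 0.0378) and HEY2 fell (-1.51 ± 0.43, adjusted p = 0.0179), which made 3 of 10 genes where 13.3% of all genes changed. In WT, HES1 (0.64 ± 0.16, adjusted p = 0.00584), JAG2 (0.53 ± 0.15, adjusted p = 0.014) and NOTCH4 (0.78 ± 0.19, adjusted p = 0.00491) rose as well, which made 4 of 10 genes where 17.8% of all genes changed. HES1 in KO was lost in 6 of the 8 fits without 1 library, HEY2 in KO without library 2 or 3 of day 12 or library 4 of day 7 (adjusted p up to 0.0741), and JAG2 in WT without library 3 of day 7 (adjusted p = 0.0646). Replicate numbers paired the WT libraries, and with them as a block HEY2 (-0.92, adjusted p = 0.0357) and NRARP (-0.65, adjusted p = 0.0264) fell in WT too.

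The libraries of day 12 differed widely among themselves in the same genes. DLL4 stood at 216, 134, 185 and 204 CPM in KO and 225, 112, 140.0 and 277 CPM in WT SOX17+CD43- cells, HEY1 at 73.1, 29.2, 47.2 and 68.9 CPM in KO and 97.8, 39.8, 46.9 and 97.8 CPM in WT, and HEY2 at 41.5, 7.77, 14.9 and 43.2 CPM in KO and 51.2, 14.2, 22.7 and 69.6 CPM in WT. Numbers 1 and 4 of both lines were the high ones in all 3 genes, and number 2 was the lowest. DLL1 ran the other way in WT, where numbers 2 and 3 were high, and in KO, where number 2 was. The 7 arterial genes summed to 3134, 1534, 1965 and 3092 CPM in the KO and 3304, 1555, 2043 and 3929.8 CPM in the WT libraries, in the order of number 1 to 4, and were high in the same libraries as DLL4. NOTCH1 varied little, with 561 to 748 CPM in KO and 648 to 767 CPM in WT. The lone KO library of SOX17-CD43- cells of day 12 held 166 CPM of DLL4, 325 CPM of NOTCH4 and 57.6 CPM of HES1, and 5.21 CPM of HEY2, below every KO SOX17+CD43- library of that day.

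**Figure D5:**
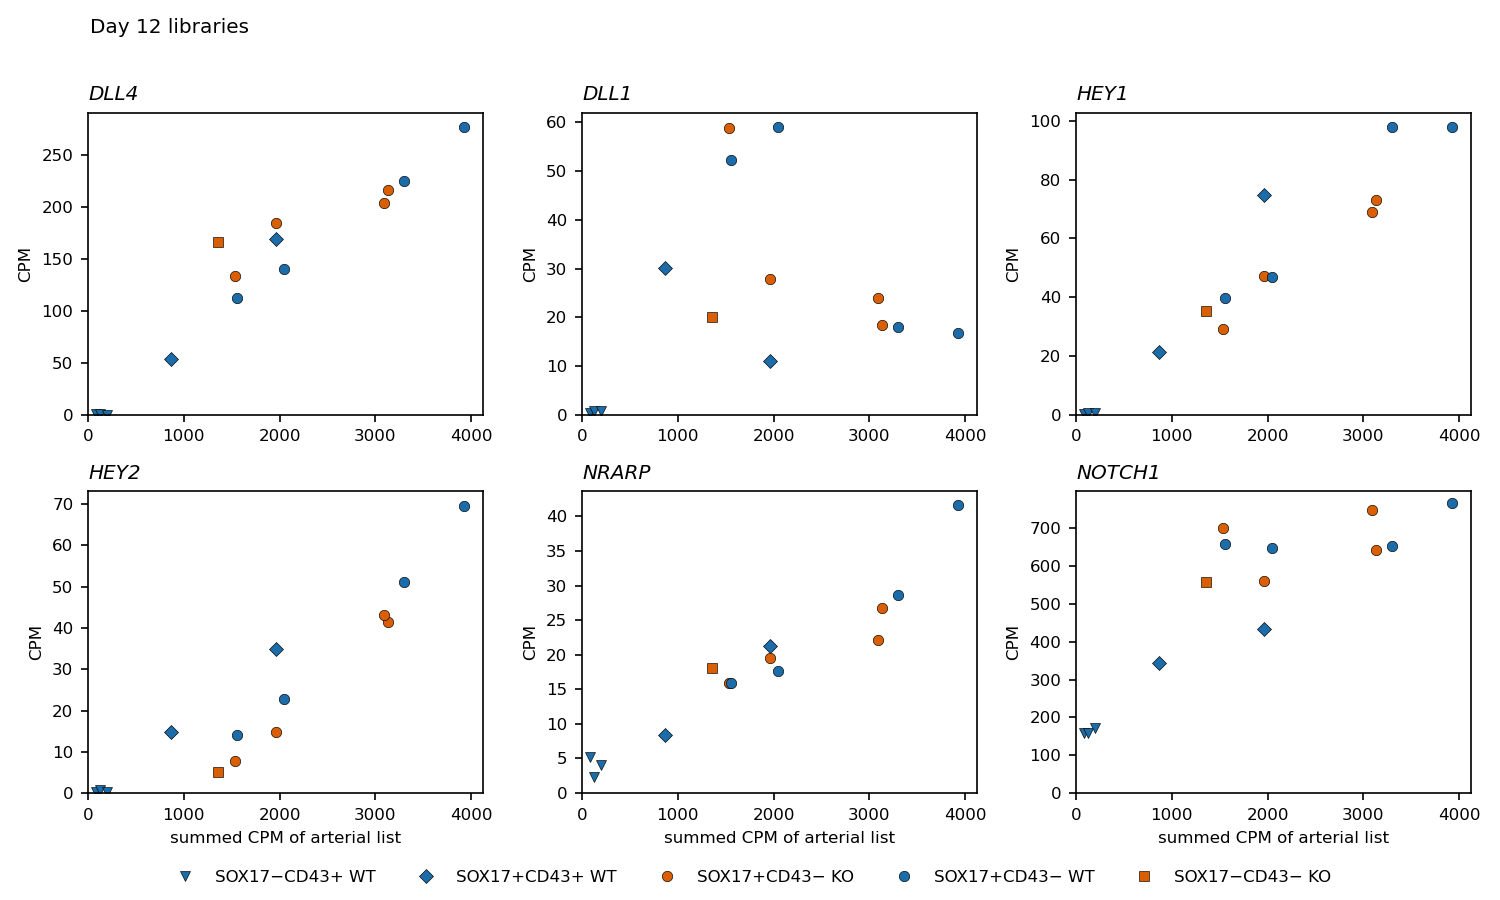
Level in CPM of 6 genes (vertical axes) against the summed CPM of 7 arterial genes (horizontal axes) in the 14 libraries of day 12, KO in orange and WT in blue, with the gate given by the symbol. DLL4, HEY1, HEY2 and NRARP are high in the libraries with much arterial RNA. Within SOX17+CD43- cells DLL1 is highest in libraries with less of it, but SOX17-CD43+ cells, with the least, hold the lowest DLL1. NOTCH1 separates the WT gates. In KO the lone SOX17-CD43- library (558 CPM of NOTCH1) lies beside the lowest SOX17+CD43- library (561 CPM).

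Among the WT gates of day 12, SOX17-CD43+ cells, which carry the blood marker CD43, had the lowest levels of the 10 genes. In WT SOX17-CD43+ cells all 10 genes were lower than in SOX17+CD43- cells, where 66.2% of all genes differed, and all 10 were lower than in SOX17+CD43+ cells, where 37.5% did. DLL4 stood at 0.576, 0.426 and 0.119 CPM in SOX17-CD43+ cells, against 112 to 277 CPM in SOX17+CD43- cells (-8.98 ± 0.52). NOTCH4 was at 3.01, 3.23 and 1.84 CPM, against 507 to 675 CPM (-7.78 ± 0.31), and HEY1 at 0.32, 0.609 and 0.594 CPM, against 39.8 to 97.8 CPM (-7.09 ± 0.56). NOTCH1 differed least, at 158, 158 and 172 CPM, against 648 to 767 CPM (-2.07 ± 0.19), followed by NRARP (-2.75 ± 0.38), JAG1 (-3.17 ± 0.23) and HES1 (-3.30 ± 0.21). None of the 10 overlapped between these gates, a count not made over all genes. The median of the 10 was -5.36, that of all genes -0.02. The largest adjusted p of the 10 was 3.61e-07, that of NRARP. Against SOX17+CD43+ cells, NRARP did not pass without number 1 of those (adjusted p = 0.127), a fit that leaves 1 library there, taken to vary like the other groups. The 12 endothelial genes summed to 293 to 623 CPM in SOX17-CD43+ cells, against 13239 to 15849.6 CPM in SOX17+CD43- cells. Mitochondrial genes held 8.37 to 8.85% of the counts in SOX17-CD43+ cells, against 4.25 to 5.24% in SOX17+CD43- cells. The part of either in the result was not tested.

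SOX17+CD43+ cells carry the endothelial and the blood marker together. Their mean CPM lay between the means of these gates for all 10 genes, a count not made over all genes. Of the 10 genes 5 were lower than in SOX17+CD43- cells and none higher, where 26.5% of all genes differed: JAG1 (-1.02 ± 0.24, adjusted p = 0.0022), JAG2 (-0.96 ± 0.19, adjusted p = 0.000487), NOTCH1 (-0.87 ± 0.21, adjusted p = 0.0026), NOTCH4 (-0.91 ± 0.24, adjusted p = 0.00635) and HES1 (-0.60 ± 0.20, adjusted p = 0.0298). JAG1 stood at 135 and 141 CPM in SOX17+CD43+ cells, against 234 to 287 CPM in SOX17+CD43- cells, and NOTCH1 at 433 and 344 CPM, against 648 to 767 CPM, without overlap. The 2 SOX17+CD43+ libraries differed from each other, with DLL4 at 169 and 54.1 CPM, NOTCH4 at 433 and 219 CPM and DLL1 at 10.9 and 30 CPM. Leaving out either one leaves 1 library in this gate, taken to vary like the other groups, so these p-values hold no spread of its own. Without number 1, DLL4 passed (-1.89, adjusted p = 0.00223), as did HEY1 and NRARP. Without number 2, DLL1 passed (-1.83, adjusted p = 0.0398) and NOTCH1 and NOTCH4 did not (adjusted p = 0.0691 and 0.214). HES1 was lost in 5 of the 6 fits without 1 library, with adjusted p up to 0.121. Blood genes summed to 1522 to 1823 CPM in these libraries, against 50.7 to 74.3 CPM in SOX17+CD43- cells, and endothelial genes to 7279.9 to 7611 CPM, against 13239 to 15849.6 CPM. Mitochondrial genes held 6.46 and 7.23% of the counts, against 4.25 to 5.24%. Whether these libraries hold 1 kind of cell or a mixture was not tested.

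SOX17 is expressed in endoderm too, and the endoderm of day 7 was set against SOX17+ endothelium of the same day. Unsorted cells of the endoderm protocol are here set against sorted cells of the mesoderm protocol. Their library numbers are 32008 to 32010 and 68685 to 68715. Protocol, sorting and number range cannot be told apart. All 10 genes were lower in WT endoderm of day 7 than in WT SOX17+CD43- cells, where 71.6% of all genes differed. DLL4 had 3 counts in the endoderm libraries together and 15822 in the endothelial ones, a ratio, endothelium over endoderm, of 4253 with a 95% counting interval of 1455 to 20627. NOTCH4 stood at 0.962, 1.05 and 1.25 CPM in endoderm, against 318 to 419 CPM in endothelium (-8.09 ± 0.18). HES1 differed least, at 11.5, 18.9 and 15.2 CPM, against 25.1 to 33.1 CPM (-0.72 ± 0.17, adjusted p = 0.00215), and DLL1 next at -1.32 ± 0.20. SOX17 itself had 208 ± 2.31 CPM in endoderm and 183 ± 32.9 CPM in endothelium (SD, n = 3 and 4).

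Across the 18 groups with replicates, DLL4, NOTCH4 and JAG2 had the most similar courses of the 10. Pearson's r of the mean log2(CPM + 1) was 0.988 for DLL4 and NOTCH4, 0.966 for DLL4 and JAG2 and 0.964 for NOTCH4 and JAG2, and 0.925 for DLL4 and NOTCH1. The targets were less alike: 0.871 for HEY1 and HES1, 0.835 for HEY1 and HEY2, 0.447 for HEY1 and NRARP and 0.323 for HES1 and NRARP. NRARP was nearer to NOTCH1 (0.84) and NOTCH4 (0.817). These are descriptions, over groups that share stages, cell types and lines. Outside the set, the genes with the closest course were CPNE5 (0.995), ADCY4 (0.994) and FLJ34503 (0.993) for DLL4, TMEM255B (0.995), AL138689.1 (0.993) and FLJ34503 (0.993) for NOTCH4, and SLC9A3R2 (0.997), the overlapping AL512356.1 (0.992) and NUDT14 (0.983) for JAG2. For HEY1 they were FZD10 (0.982), HOXA11 (0.977) and HOXA13 (0.974), for NOTCH1 NHSL2, NLRP1 and CORO6 (0.978 to 0.981), for JAG1 PUDP, FAS and EXOC3L2 (0.963 to 0.977), for DLL1 STAB2, HAGLR and NR2F1 (0.941 to 0.957) and for NRARP CAVIN1, CHST7 and ZDHHC3 (0.946 to 0.953). HEY2 and HES1 had the least close partners, ID1, KIRREL1 and CNOT4 (0.919 to 0.923) and KANK2, TNKS and ADAMTS9-AS1 (0.881 to 0.93).

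The wider pathway, 45 further genes of ligands, receptors, processing enzymes, glycosyltransferases, nuclear partners and targets, moved in both directions. Of 43 tested in mesoderm, 12 rose and 17 fell between day 0 and day 2, where 45.1% of all genes changed, and 23 rose and 9 fell between day 2 and day 4, where 51.4% did. The largest changes to day 2 were those of DLL3, a ligand that in mouse inhibits the pathway (3.30 ± 0.62), and of 2 fringe enzymes. These, MFNG (-3.98 ± 1.20) and LFNG (-3.04 ± 0.87), add sugars to Notch. WT libraries of day 0 ranged widely, from 0.189 to 4.37 CPM for MFNG and from 10.5 to 155 CPM for LFNG. MFNG had 4 counts in all at day 2. The largest changes to day 4 were those of MFNG (5.28 ± 1.12, from these 4 counts), DTX1 (-4.48 ± 0.36) and DLK1 (3.05 ± 0.31). DTX1 is a ubiquitin ligase that binds Notch, and DLK1 a ligand-like membrane protein. Of 42 tested in endoderm, 12 rose and 9 fell, 15 rose and 8 fell and 7 rose and 9 fell in the 3 intervals, where 55.5%, 42.4% and 21.3% of all genes changed, with HES4, a target, up by 4.61 ± 0.29 between day 2 and day 4. Between the protocols the change of HES4 from day 0 to day 4 differed by 5.40 ± 0.56, opposite in sign to HES1, HEY1 and HEY2. In WT SOX17+CD43- cells of day 7, 17 of 42 were higher and 11 lower than in mesoderm of day 4 (62.8% of all genes differed), led by MFNG (4.17 ± 0.25), HES4 (3.79 ± 0.39) and DTX1 (3.26 ± 0.48). Endoderm of day 7 had 11 higher and 18 lower than this endothelium (71.6% of all genes differed), with MFNG at -6.35 ± 0.20.

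None of the wider genes passed edgeR's test between SOX17+ and SOX17- cells in either line, nor between KO and WT at any stage or gate. At an unadjusted p under 0.05 there were 5 of 42 between the gates in KO and 7 in WT. Of all 22978 genes, 1832 and 2619 were under it there. Between KO and WT at most 2 were under it in any comparison, where 146 to 1094 of all genes were. DESeq2 called none between the gates in KO, CIR1 and HES4 in WT, and MIB1 alone between KO and WT at day 2, and limma called none. In KO SOX17+CD43- cells 3 rose and 5 fell between day 7 and day 12 (13.3% of all genes changed), with DLL3 at -1.68 ± 0.33, HEYL, a target related to HEY1, at -1.38 ± 0.30 and DTX4 at -0.84 ± 0.20. In WT cells 6 rose and 3 fell (17.8% of all genes changed), among them NEURL1, a ubiquitin ligase of the ligands (1.42 ± 0.32), LFNG (0.74 ± 0.15) and DLL3 (-2.07 ± 0.32). SOX17-CD43+ cells had 6 higher and 18 lower than SOX17+CD43- cells, and SOX17+CD43+ cells 0 higher and 8 lower, where 66.2% and 26.5% of all genes differed. Both counts, of 42 tested, are smaller shares than those of all genes. NOTCH3, a receptor of smooth muscle and pericytes, was among the lower ones in both, at -4.79 ± 0.26 and -1.07 ± 0.24. The median difference of the 42 tested was -0.31 in SOX17-CD43+ cells, where that of the 10 genes was -5.36.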

How the data were processed

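RNA of 65 libraries was measured by total RNA sequencing. The deposited table holds fragment counts of 58302 genes, made with featureCounts on GRCh38 after trimming with cutadapt 1.18, per the submitters' processing notes, which also name R 3.2.2. A second deposited table holds a log-scale score that its name gives as log2 of TMM-scaled RPKM plus 1, at 0 where the count is 0. It was used for levels per length and for limma only, and the sources used here do not give the gene lengths behind it. Libraries were tied to samples by the library numbers in both tables' headers, and no column was left without a sample.

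Counts as deposited were tested with edgeR 4.0.16's quasi-likelihood test in R 4.3.3, with TMM factors and genes kept by filterByExpr (minimum count 10, minimum total 15), and p-values adjusted after Benjamini and Hochberg over all genes of a fit (20028 to 22978 genes). There were 6 fits, with 1 mean per group: unsorted mesoderm, endoderm, both protocols over days 0 to 4, all sorted cells, and 2 of a single pair of groups. The standard error of a fold change is its size divided by the square root of F. CPM are counts scaled to the library total. Overlap of groups in CPM was looked at for the listed genes only, and its share over all genes was not counted. With 10366048 to 19081031 counts a library, 1 count is worth under 0.1 CPM, and intervals on counts cover counting error only. The scripts were tested on simulated data. Alternatives were other size factors, no filter, blocks, DESeq2 1.42.0, limma 3.58.1, the compared groups alone, and fits that left out a library.

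Replicate numbers counted as pairs where the deviations of every same-numbered pair from their group means correlated above 0.1. This held for KO against WT at day 0 (0.301 to 0.816), KO against WT SOX17+ cells of day 7 (0.277 to 0.526) and WT SOX17+CD43- cells of day 12 against day 7 (0.165 to 0.277). Runs of 10 consecutive library numbers, counted from the titles, also paired the gates of KO cells (0.168 to 0.392) and the KO and WT SOX17- cells of day 7 (0.161 to 0.232).

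The 10 genes, the wider pathway list and the marker lists were chosen with earlier results of these data known. Of the wider list at most 3 genes a comparison are named, those with the largest fold change past the test and more than 3 counts in both groups. Genes of similar course are the 3 with the highest Pearson correlation of mean log2(CPM + 1) over the 18 groups, among genes with a mean of at least 5 CPM in some group. CIR1 and MIB1, and HES4 beside CIR1, were named after their values were seen.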

Additional observations from a re-analysis of the deposited data

Results flagged for a closer look

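In groups of 4 libraries, 1 library stood apart from the other 3 in 10 of 110 pairs of a gene and a group, where chance gives about 5 percent. At day 0, JAG1 was high in KO number 1 (80.8 CPM) and in WT number 1 (87.6 CPM), HEY2 was low in KO number 1 (8.26 CPM) and HES1 low in KO number 2 (8.44 CPM). DLL4 stood apart there through 1 count in KO number 1 (0.0650 CPM) and 2 counts in WT number 4 (0.147 CPM), with none in the other libraries of these groups. NRARP was high in KO number 4 of day 2, at 7.64 CPM. JAG2 was low in WT SOX17+ number 3 of day 7, at 99.8 CPM. At day 12, HES1 was low in WT SOX17+CD43- number 1, at 32.9 CPM, and NOTCH1 high in number 4 of that group, at 767 CPM.

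The change since day 0 differed between the endoderm and mesoderm protocols, by a test of the difference itself, for 4 genes at day 2 and 6 at day 4. At day 2 the differences, endoderm minus mesoderm, were -3.96 for DLL1, 1.45 for JAG2, -4.64 for HEY1 and -4.55 for HEY2. At day 4 they were -4.55 for JAG1, -1.31 for NOTCH1, -2.04 for NOTCH4, -7.66 for HEY1, -5.42 for HEY2 and -3.06 for HES1. JAG1 also passed at day 2 without the high WT number 1 of day 0 in the mesoderm protocol (-1.24, adjusted p = 0.0158).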

How the results depend on the processing

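Of 235 tested values of the 10 genes 97 passed, and 81 of these passed under every alternative. Over 3516 alternative values none that passed changed direction, 54 lost and 73 gained the threshold, and 131 under it in both fits changed sign. Between the gates of KO cells of day 7, 1 member passed, against 4 without a filter, 2 with the replicate block, 5 with runs of library numbers as a block, 2 with DESeq2 and 5 with the compared groups alone. Between SOX17+CD43+ and SOX17+CD43- cells 5 passed, against 8 without a filter and 8 with library runs as a block. Leaving out 1 library gave 1 to 4 members between the gates of WT cells, 1 to 4 between day 12 and day 7 in KO, and 3 to 7 between SOX17+CD43+ and SOX17+CD43- cells. The replicate block changed no count of members in the other comparisons by over 1.5 times. Between day 12 and day 7 in KO, NRARP was at -0.86 (adjusted p = 0.0545) and passed in 5 of 7 other settings (adjusted p from 0.00434 to 0.1), among them DESeq2 (-0.85, adjusted p = 0.0386) and the replicate block (-0.82, adjusted p = 0.00743), though these numbers did not meet the rule for pairs, and in 2 of 8 fits without 1 library. All-gene counts moved by over 1.5 times between KO and WT, from 0 to 143 at day 2, 0 to 2 at day 4, 9 to 34 and 2 to 24 in SOX17+ and SOX17- cells of day 7, and 10 to 96 at day 12. They also moved between the gates, from 154 to 612 in KO and 208 to 651 in WT, in the KO effect of day 12 minus day 7, from 0 to 11, and between SOX17-CD43+ and SOX17+CD43+ cells, from 5683 to 9032. The causes were not tested. Depth limits DLL4 before day 4 and in endoderm, where a library held at most 5 counts.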
